A study of Mus musculus with 24 samples.

Results

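The integrins and cadherins of 3T3 mouse embryonic fibroblasts (MEFs, an immortalized fibroblast line) were described here as all protein-coding genes named as an integrin alpha subunit, an integrin beta subunit or a numbered cadherin. This rule found 49 of the 55471 genes counted, 26 integrins (18 alpha and 8 beta subunits) and 23 cadherins. RNA-seq had been carried out on 24 libraries in 8 groups of 3: wild-type (WT) MEFs, Lkb1-/- MEFs, and clones A1 and A2 of Lkb1-/-/Crtc2-/- MEFs, each kept as ctrl or given IL-1β, an inflammatory cytokine, over 6 hours. Both clones were derived from Lkb1-/- MEFs with guides against the first exon of Crtc2, and each grew from a single sorted cell, so that all of their libraries also lack Lkb1 and a difference between a clone and Lkb1-/- MEFs cannot be told apart from the particular history of that clone. The comparisons ask how loss of LKB1, the kinase upstream of AMPK and the salt-inducible kinases, changed these genes, whether loss of the CREB coactivator CRTC2 altered them in turn, and how they responded to IL-1β.

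Integrins are receptors made of an alpha and a beta subunit that span the plasma membrane and bind extracellular matrix or proteins of other cells. The alpha subunit largely sets the ligand: αv, α5, α8 and αIIb recognise the RGD sequence of fibronectin and vitronectin, α3, α6 and α7 bind laminins, and α1, α2, α10 and α11 bind collagens, most of them in partnership with β1. Cadherins join cells to like cells through calcium-dependent contacts of their extracellular repeats, and the classical ones are tied to actin by catenins. Fibroblasts typically carry N-cadherin (Cdh2) and several β1 and αv integrins.

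Between 38842901 and 48594394 read pairs per library were assigned to genes. Stk11, the gene of LKB1, lay at 86.0 ± 1.68 CPM (SD, n = 3; CPM is the read count scaled to the normalized library size) in untreated WT and 17.3 ± 1.24 CPM in Lkb1-/- MEFs, and Crtc2 at 81.2 ± 1.80 CPM in Lkb1-/- MEFs, 42.9 ± 2.11 in A1 and 49.8 ± 0.86 in A2. Crtc2 was lower in A1 and A2 than in Lkb1-/- MEFs (log2 fold change -0.92 and -0.70, adjusted p = 2.2e-09 and 9.9e-08). A guide-made deletion need not remove the transcript, so Crtc2 RNA in the clones is no measure of the protein. Of 7 fibroblast markers, Thy1 never exceeded 3 counts and the list summed to 3427 to 7580 CPM over the libraries. Of the 6 tested, 2 were higher and 3 lower in untreated Lkb1-/- than in WT MEFs: Pdgfra went from 4.58 to 341.8 CPM (6.22 ± 0.32, edgeR adjusted p = 6.8e-13) and Col1a2 from 780.1 to 63.0 CPM (-3.63 ± 0.30, adjusted p = 1.4e-09), and their part in the results below was not tested. In bulk RNA, fewer cells of a type and less RNA per cell cannot be told apart. The library numbered 1 stood apart in every group: the chi-square of gene counts per degree of freedom was 33.9 to 95.9 between it and its fellow replicates, against 6.83 to 16.9 between the libraries numbered 2 and 3. Without the 8 libraries numbered 1, 25 members in place of 24 were called between untreated Lkb1-/- and WT MEFs, 13 in place of 15 in A1 and 13 in place of 11 in A2 against Lkb1-/- MEFs. Over all genes tested, the calls in these comparisons were 10320 in place of 9798, 7025 in place of 6181 and 6842 in place of 5655.

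Low counts kept 20 members out of every test, 6 integrins (Itga9, Itgad, Itgae, Itgal, Itgam and Itgax) and 14 cadherins. The largest count of any of them in a library was 17, for Itgae, and Cdh8, Cdh19 and Cdh20 had no count at all in 24 libraries. E-cadherin (Cdh1), the adhesion molecule of epithelia, reached at most 7 counts, VE-cadherin (Cdh5) of endothelium at most 1, and cadherin 11, a cadherin often found in mesenchymal cells, at most 7. The other 29 members, 20 integrins and 9 cadherins, were among the 17522 genes tested, and a member called here passed a false discovery rate of 0.05 in edgeR's quasi-likelihood test over all of those genes.

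Levels of different genes were compared as CPM per kilobase of exon. In untreated WT MEFs, Itgb1, the subunit shared by most matrix receptors, made up 84.0% ± 1.77 (SD, n = 3) of the summed level of the beta subunits and Itgb5 12.9% ± 2.17. Among alpha subunits Itgav (38.0% ± 2.02) and Itga3 (35.2% ± 1.08) stood above Itga5 (15.7% ± 0.75) and Itga6 (7.24% ± 0.47), and the interval of Itgav overlapped that of Itga3. In Lkb1-/- MEFs the order was Itga5 at 37.8% ± 1.28, Itgav at 29.4% ± 0.59 and Itga3 at 27.8% ± 1.58, the last of these within their spread of each other. Cdh2 made up 59.2% ± 1.42 of the cadherin sum in WT MEFs and Cdh24, a type II classical cadherin, 29.6% ± 1.53. In clone A2 that order was turned, with Cdh24 at 47.4% ± 0.72 and Cdh2 at 36.3% ± 2.30, while Cdh18 took 24.4% ± 2.35 in clone A1. These orders depend on the annotated exon lengths. In CPM alone, Cdh2 stood above Cdh24 in untreated A2 (78.2 and 44.3). Itgav likewise stood above Itga5 in untreated Lkb1-/- MEFs (419.6 and 247.5).

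**Figure D1:**
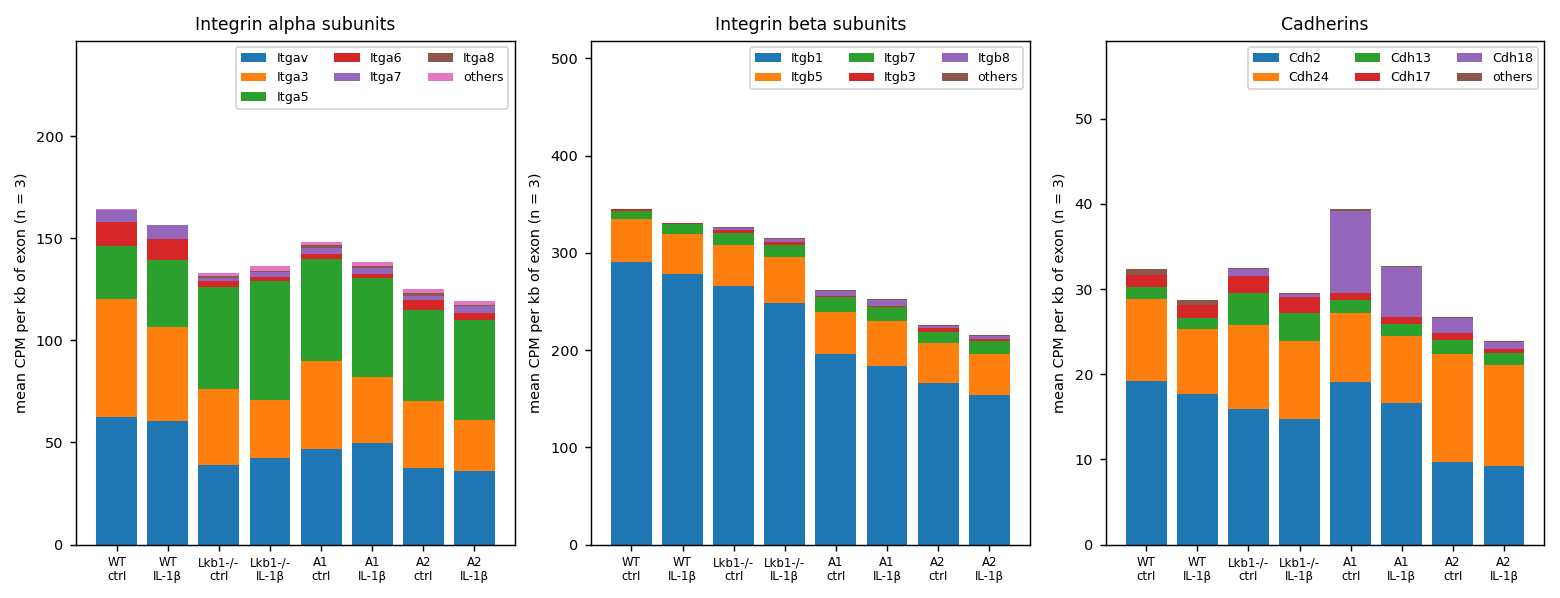
Stacked bars give the mean level (CPM per kilobase of exon, n = 3 libraries) of integrin alpha subunits, integrin beta subunits and cadherins in each of the 8 groups. The Itgb1 bar runs from 290.3 in untreated WT to 154 in IL-1β-treated clone A2, the Itga5 bar is taller in every group lacking Lkb1 than in WT, and Cdh18 is visible mainly in clone A1.

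Upstream sequence was available for 31 of the 49 members, in 35 promoters of the RefSeq annotation (GRCm38.p6). The 250 bases before the annotated start were searched on both strands. The full cAMP response element TGACGTCA, the site of CREB, with which CRTC2 acts, was found in 0 of the 35 and in 1.55% of all 32851 promoters of that length. The shorter motif TGACG, which the full element contains, was found in 4 (those of Cdh8, Itga9, Itgb1 and Itgb6) and in 17.8% of all, the AP-1 site TGACTCA in 1 (Itgax) and in 4.46% of all, and the GC box GGGCGG in 12 and in 32.7% of all. A match is a run of letters and not a measured binding site. Upstream sequences of 3 members are shown because the results below turn on them: Itgb1 (chr8:128685404-128685653, plus strand), which fell in both clones, with its TGACG in capitals and its GC box left in lower case, Itga5 (chr15:103366792-103367041, minus strand), with its 2 GC boxes in capitals on the opposite strand, and Itga2 (chr13:114932101-114932350, minus strand), which held none of these 4 motifs. Each is printed 5′ to 3′ and ends at the base before the start.
Itgb1: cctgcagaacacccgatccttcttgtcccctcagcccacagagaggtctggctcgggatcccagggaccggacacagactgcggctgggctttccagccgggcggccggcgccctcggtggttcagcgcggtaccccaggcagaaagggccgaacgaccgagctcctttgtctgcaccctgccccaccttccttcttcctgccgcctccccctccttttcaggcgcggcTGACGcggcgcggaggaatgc
Itga5: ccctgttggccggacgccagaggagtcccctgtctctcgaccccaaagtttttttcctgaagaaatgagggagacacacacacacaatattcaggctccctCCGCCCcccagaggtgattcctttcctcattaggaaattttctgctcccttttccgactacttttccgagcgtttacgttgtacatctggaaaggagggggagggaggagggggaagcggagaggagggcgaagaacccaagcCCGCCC
Itga2: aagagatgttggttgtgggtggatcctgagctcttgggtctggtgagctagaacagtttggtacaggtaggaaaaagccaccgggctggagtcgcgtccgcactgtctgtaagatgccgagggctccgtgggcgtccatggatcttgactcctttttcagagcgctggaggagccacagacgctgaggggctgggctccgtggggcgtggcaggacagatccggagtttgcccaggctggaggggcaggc

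In Lkb1-/- MEFs the alpha subunits that bind laminin were lower than in WT MEFs, and α5 and several sparse subunits that bind collagen or RGD were higher. The sources used here name 1 WT and 1 Lkb1-/- line, so that genotype and line cannot be told apart in this comparison. In untreated cells 24 of the 29 tested members were called, 15 higher and 9 lower in Lkb1-/- than in WT MEFs, beside 55.9% of all genes tested. The median absolute log2 fold change of the members was 1.92, against 0.47 over all genes. With IL-1β 24 members were called as well, beside 57.4% of all genes, and 22 of the 29 were called in the same direction in both treatments, beside 49.9% of all genes. Itgb1, Itgb5 and Itgb7 were called in neither, though each was called under some alternatives with IL-1β. There Itgb1 (-0.16, adjusted p = 0.054) passed with unstranded counts (0.024), without treated library 3 of WT or of Lkb1-/- MEFs (0.018 and 0.044) and without all libraries numbered 1 (0.032). Itgb5 (0.21, adjusted p = 0.32) passed without the filter on low counts (0.017), and Itgb7 (0.28, adjusted p = 0.4) without the filter (0.0072) or all libraries numbered 1 (0.011).

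All 3 laminin-binding subunits were lower in Lkb1-/- MEFs. Itga6 stood at 111, 98.7 and 113 CPM in the WT libraries and at 28.3, 21.1 and 25.9 CPM in the Lkb1-/- libraries, a log2 fold change of -2.10 ± 0.15 (SE, edgeR adjusted p = 1.3e-10). Itga7, the α subunit best known from muscle, stood at 45.2, 46.5 and 50.6 CPM in WT and at 13.0, 12.3 and 12.2 CPM in Lkb1-/- libraries (-1.92 ± 0.10, adjusted p = 1.5e-12). Neither pair of groups overlapped. Itga3, the most abundant of the 3, went from 331 ± 12.7 to 211 ± 14.7 CPM (-0.65 ± 0.07, adjusted p = 1.2e-07). Itga7 overlaps Mettl7b on the opposite strand, and its counts here are those of its own strand. The muscle markers Myod1 and Myog stayed at or under 3 counts in every library, but the third, desmin (Des), was higher at a low level, 0.0781 CPM in untreated WT and 0.311 CPM in Lkb1-/- MEFs (1.94 ± 0.55, adjusted p = 0.005). Its level in untreated A2 was 0.914 CPM. The 3 markers summed to 0.0522 to 0.115 CPM in the untreated WT and 0.249 to 0.405 CPM in the untreated Lkb1-/- libraries, and their part in the Itga7 result was not tested.

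The collagen-binding group moved the other way, 3 of 4 members being higher. Itga2, which pairs with β1 as a collagen receptor of platelets and epithelia, had 0.067, 0.069 and 0.104 CPM in WT and 4.14, 1.72 and 2.40 CPM in Lkb1-/- libraries (5.07 ± 0.62, adjusted p = 4.3e-07). Itga1 had 0.067, 0.414 and 0.548 CPM in WT and 3.78, 4.20 and 5.36 CPM in Lkb1-/- libraries (3.72 ± 0.42, adjusted p = 1.6e-07), and shares its strand with the overlapping gene Pelo, so that reads of the shared part cannot be assigned. The lowest Lkb1-/- library lay above the highest WT library for each. Of 6 epithelial markers the 1 tested, Epcam, was higher as well, at 0.0313 and 0.232 CPM in WT and Lkb1-/- MEFs (2.77 ± 0.70, adjusted p = 0.002), and so was Kdr, the 1 tested of 4 endothelial markers, at 0.391 and 2.60 CPM (2.73 ± 0.27, adjusted p = 2.6e-08). Among epithelial markers too sparse to test, Krt8 had 0.176 and 0.0315 CPM and Cldn4 0.142 and 0.00773 CPM in untreated WT and Lkb1-/- MEFs. Krt18 had 0.0248 and 0.0693 CPM. The epithelial list summed to 0.138 to 0.678 CPM in the untreated WT and 0.294 to 0.441 CPM in the untreated Lkb1-/- libraries and the endothelial list to 0.424 to 0.678 and 2.45 to 2.85 CPM, and their part in the results was not tested. Itga11 had a single count in the 3 untreated WT libraries together and 11, 30 and 29 counts in the Lkb1-/- libraries, a ratio of 68.5 with a 95% counting interval of 11.9 to 2745. Itga10 was lower, at 1.47, 1.68 and 1.62 CPM in WT and 0.702, 0.719 and 0.643 CPM in Lkb1-/- libraries (-1.20 ± 0.32, adjusted p = 0.0027). It overlaps Gm42957 on its own strand, and it was not called with IL-1β (-0.57 ± 0.33, adjusted p = 0.15). Without the treated Lkb1-/- library numbered 1 that value was -0.93 with an adjusted p of 0.036, and without all libraries numbered 1 it was -1.11 with an adjusted p of 0.0041.

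Among the RGD-binding subunits 3 of 4 were higher and Itgav was lower. Itga5, the fibronectin receptor subunit whose upstream sequence is given above, stood at 135, 121 and 128 CPM in WT and at 242, 254 and 246 CPM in Lkb1-/- libraries (0.95 ± 0.06, adjusted p = 1.2e-11). Itgav, which pairs with β1, β3, β5, β6 or β8, went from 670.5 ± 29.8 to 419.6 ± 6.18 CPM (-0.68 ± 0.08, adjusted p = 3.6e-07). These are the most abundant members of the group, and neither overlapped between genotypes. Itga8, known from kidney development as a nephronectin receptor, had 0, 4 and 7 counts in the WT libraries, at most 0.183 CPM, and 6.43, 7.66 and 9.33 CPM in the Lkb1-/- libraries (log2 fold change 6.43 ± 0.42, adjusted p = 3.3e-11). Itga2b, the platelet subunit αIIb, had 0.603, 0.414 and 0.365 CPM in WT and 2.83, 2.71 and 2.38 CPM in Lkb1-/- libraries (2.50 ± 0.28, adjusted p = 1.2e-07). The summed level of 4 platelet and megakaryocyte markers was 0.852 to 2.08 CPM in the untreated WT and 3.83 to 4.55 CPM in the untreated Lkb1-/- libraries, with Gp9 and Gp1ba at or under 3 counts in every library. Nearly all of it was Ppbp, at 1.36 and 4.12 CPM in WT and Lkb1-/- MEFs, while Pf4 stood at 0.0154 and 0.11 CPM. Their part in the Itga2b result was not tested.

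**Figure D2:**
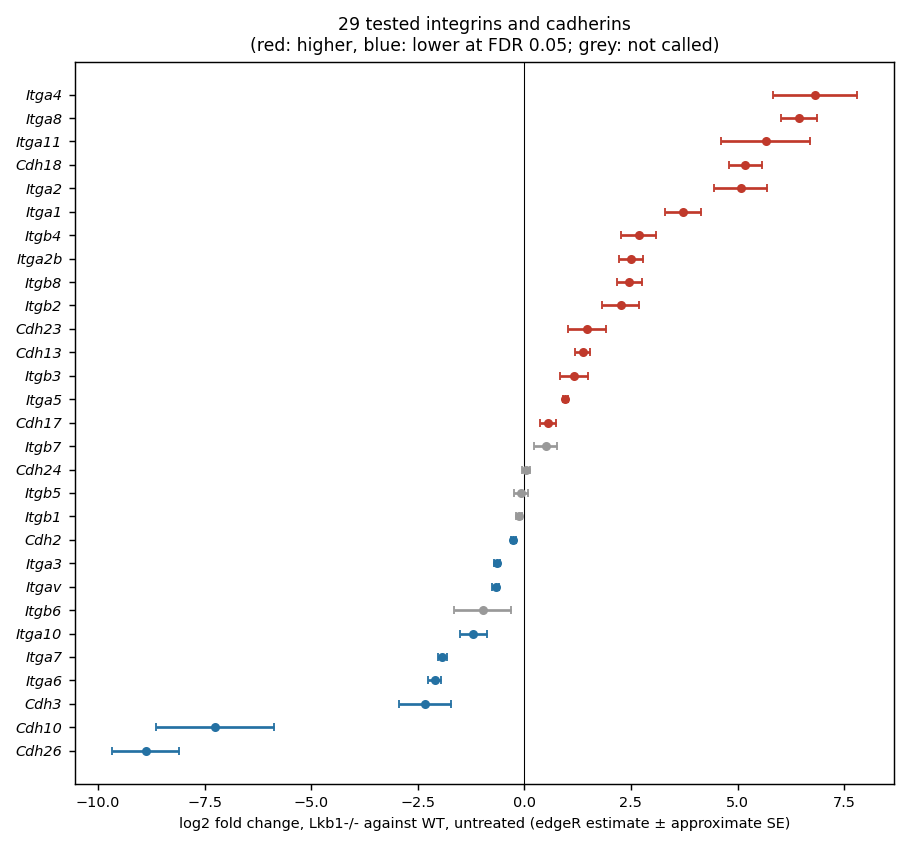
Points give the log2 fold change (± approximate SE) of the 29 tested members between untreated Lkb1-/- and WT MEFs, red for higher, blue for lower and grey for not called. Cdh26, Cdh10, Cdh3, Itga6 and Itga7 lie on the lower side and Itga8, Itga2, Cdh18 and Itga1 on the higher side; the points of Cdh10, Cdh26 and Itga4 are fitted against a group with no count, and their size depends on the fit.

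Of 6 beta subunits outside the leukocyte group, Itgb3, Itgb4 and Itgb8 were higher in Lkb1-/- MEFs, and Itgb1, Itgb5 and Itgb6 were not called. Itgb1 stood at 1195, 1219 and 1141 CPM in WT and 1092, 1104 and 1061 CPM in Lkb1-/- libraries, which did not overlap but were not called (-0.13 ± 0.07, adjusted p = 0.14). Without the WT library numbered 3 the value was -0.21 with an adjusted p of 0.02, without the Lkb1-/- library numbered 1 it was -0.20 with an adjusted p of 0.034, and with unstranded counts -0.20 with an adjusted p of 0.041. Itgb5, the vitronectin receptor subunit, had 130.2, 164 and 182 CPM in WT and 139, 149 and 162 CPM in Lkb1-/- libraries, which overlapped (-0.08 ± 0.17, adjusted p = 0.73). Itgb8, the αv partner that activates latent TGF-β, had 3.37, 5.48 and 6.70 CPM in WT and 22.2, 31.6 and 31.6 CPM in Lkb1-/- libraries (2.46 ± 0.30, adjusted p = 4e-07). Itgb3 had 4.71, 8.08 and 11.8 CPM in WT and 16.5, 16.6 and 21.8 CPM in Lkb1-/- libraries (1.17 ± 0.33, adjusted p = 0.005). The genotypes did not overlap for Itgb3 or Itgb8, though the WT libraries of Itgb3 were widely spread. Itgb4, the α6 partner of hemidesmosomes, rose from 0.122 ± 0.0754 to 0.781 ± 0.0671 CPM (2.68 ± 0.41, adjusted p = 1e-05).

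The leukocyte subunits were sparse apart from Itgb7. Itgb2, the common β chain of leukocyte integrins, rose from 0.167 ± 0.0652 CPM in WT to 0.806 ± 0.0869 CPM in Lkb1-/- MEFs (2.26 ± 0.44, adjusted p = 0.00017). None of its alpha partners Itgal, Itgam, Itgax and Itgad passed the filter. The leukocyte markers Ptprc, Adgre1, Cd3e and Tyrobp never exceeded 3 counts, and the summed level of the leukocyte marker list was 2.44 to 4.0 CPM in untreated WT, 4.33 to 5.93 CPM in untreated Lkb1-/- and 6.51 to 8.29 CPM in untreated A1 libraries. Within that list Csf1r rose from 0.0464 CPM in WT to 1.68 CPM in Lkb1-/- MEFs (5.07 ± 0.40, adjusted p = 6e-10) and stood at 2.15 CPM in A1, while Cd68, at 3.28 and 3.38 CPM in WT and Lkb1-/- MEFs, was not called (0.04 ± 0.21, adjusted p = 0.88). The part of these markers in the Itgb2 result was not tested. Itgb7 had 35.3, 14.8 and 20.7 CPM in WT and 39.1, 28.1 and 32.9 CPM in Lkb1-/- libraries, and the libraries numbered 1 were its highest in every group. It was not called (0.50 ± 0.27, adjusted p = 0.13), but it was called without the WT library numbered 1 (0.91 ± 0.27, adjusted p = 0.0076) and without all libraries numbered 1 (0.78 ± 0.17, adjusted p = 0.00099). Without the filter on low counts it was called as well (0.49 ± 0.10, edgeR adjusted p = 4.8e-06). Itga4, the α chain of the VCAM-1 receptor, had no count in the 6 WT libraries and 14, 10 and 18 counts in the untreated Lkb1-/- libraries, which was at least 4.56-fold higher on a floor of 3 counts per library.

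Among cadherins 4 were higher and 4 lower in untreated Lkb1-/- than in WT MEFs. Cdh13, or T-cadherin, which is anchored by a lipid and binds adiponectin, stood at 15.5, 16.6 and 16.9 CPM in WT and at 40.8, 41.9 and 43.6 CPM in Lkb1-/- libraries (1.36 ± 0.18, adjusted p = 1.1e-06). Cdh18, a type II cadherin of the nervous system, had 2, 11 and 0 counts in WT and 148, 183 and 164 counts in Lkb1-/- libraries (5.19 ± 0.39, adjusted p = 2.8e-10). Cdh26 had 60, 62 and 52 counts in WT and no count in any Lkb1-/- library, treated or not, so that it was at least 19.7-fold lower. Cdh10, with 15, 15 and 25 counts in WT, also had none, at least 6.38-fold lower (edgeR adjusted p = 0.0018, DESeq2 0.27). Cdh2 was lower by a small amount, from 154.8 ± 7.48 to 128.7 ± 1.74 CPM (-0.27 ± 0.06, adjusted p = 0.00071). P-cadherin (Cdh3) fell from 0.994 ± 0.165 to 0.195 ± 0.08 CPM (-2.34 ± 0.61, adjusted p = 0.0025), and Cdh24 was not called (0.03 ± 0.09, adjusted p = 0.79). Cdh23, part of the tip link of hair cells, was higher at low counts (1.46 ± 0.44, adjusted p = 0.0077), a call lost without the WT library numbered 2 or the Lkb1-/- library numbered 3 (adjusted p = 0.053 and 0.09) and with unstranded counts (0.06). It overlaps Vsir on the opposite strand.

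**Figure D3:**
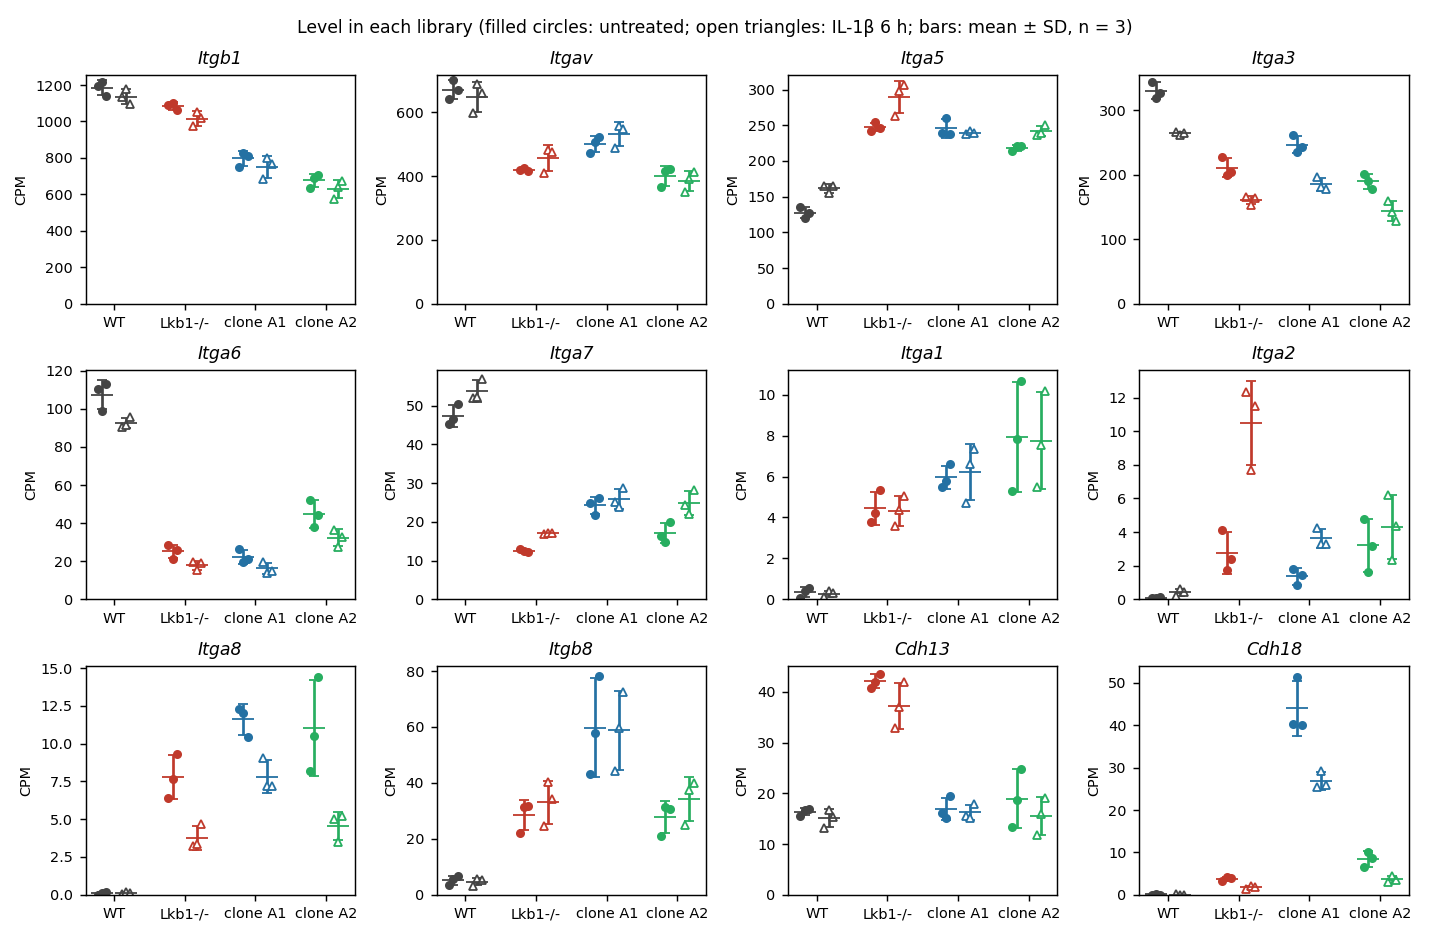
Each panel gives the CPM of a member in every library (filled circles untreated, open triangles IL-1β), with the mean ± SD of 3 libraries, for WT, Lkb1-/- and both Lkb1-/-/Crtc2-/- clones. Itga6 and Itga7 are highest in WT, Itga1, Itga2, Itga8 and Itgb8 are near the axis in WT, and Cdh13 is high in Lkb1-/- libraries alone, where all 6 lie between 32.8 and 43.6 CPM.

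The clones were compared with Lkb1-/- MEFs to ask which members changed with CRTC2. In A1, 15 members were called in untreated cells, 10 higher and 5 lower, beside 35.3% of all genes tested; in A2, 11 were called, 6 higher and 5 lower, beside 32.3%. With IL-1β the counts were 17 (36.7%) and 12 (32.8%). Both clones were set against the same Lkb1-/- libraries, so each clone's own values for the members are given side by side. Leaving out 1 library gave 6 to 9 higher and 3 to 6 lower in A1, with 6 and 4 without A1 ctrl library 3 and 6 and 6 without Lkb1-/- ctrl library 2. Of the 15 calls in A1, 8 were lost under at least 1 alternative. That of Cdh24 (-0.26, adjusted p = 0.028) was lost without any 1 of the A1 libraries (adjusted p = 0.075, 0.072 and 0.053), without Lkb1-/- library 1 or 3 (0.072 and 0.14) and without all libraries numbered 1 (0.071).

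Cdh13, high in Lkb1-/- MEFs, was lower in both clones. It stood at 16.1, 15.2 and 19.4 CPM in A1 (-1.32 ± 0.18 against Lkb1-/- MEFs, adjusted p = 6.5e-06) and at 13.3, 18.7 and 24.8 CPM in A2 (-1.15 ± 0.18, adjusted p = 3.7e-05). No library of either clone reached the lowest Lkb1-/- library. Against WT MEFs it was not called in A1 (0.05 ± 0.18, adjusted p = 0.83) or in A2 (0.21 ± 0.18, adjusted p = 0.32), though without the libraries numbered 1 the A2 difference was 0.38 ± 0.15 with an adjusted p of 0.036, and without the A2 library numbered 1 alone 0.36 ± 0.15 with an adjusted p of 0.05. With IL-1β the difference from Lkb1-/- MEFs was -1.20 ± 0.18 in A1 and -1.26 ± 0.18 in A2 (adjusted p = 1.9e-05 and 1.5e-05).

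Cdh17, known as the liver-intestine cadherin, had 9.17, 7.61 and 10.5 CPM in untreated Lkb1-/- libraries, 2.76, 3.84 and 4.41 CPM in A1 and 3.32, 2.71 and 3.59 CPM in A2. Both clones were lower than Lkb1-/- MEFs (A1 -1.31 ± 0.19, adjusted p = 1.9e-05; A2 -1.5 ± 0.19, adjusted p = 5.2e-06) and also lower than WT MEFs (adjusted p = 0.0025 and 0.00026), where it stood at 7.21, 5.04 and 6.21 CPM. The A1 difference from WT did not hold without the libraries numbered 1 (-0.44 ± 0.22, adjusted p = 0.1). The higher level in Lkb1-/- than in WT MEFs (0.56 ± 0.19, adjusted p = 0.014) was lost without any of 4 single libraries, WT 2 or 3 or Lkb1-/- 1 or 3 (adjusted p = 0.084, 0.051, 0.056 and 0.12).

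Cdh18 was higher again in the clones. It stood at 3.35, 4.25 and 3.9 CPM in Lkb1-/- libraries, 40.2, 51.5 and 40.2 CPM in A1 (3.52 ± 0.24, adjusted p = 7.5e-10) and 6.53, 10.1 and 8.63 CPM in A2 (1.13 ± 0.23, adjusted p = 0.00063). The clones themselves differed by -2.39 ± 0.22 on the log2 scale (A2 against A1, adjusted p = 7.9e-08), beside 14 members and 32.5% of all genes called between them. Itga7 rose in both clones but stayed under WT: 24.8, 21.9 and 26.3 CPM in A1 (0.96 ± 0.10 against Lkb1-/- MEFs, adjusted p = 4.2e-07) and 16.4, 14.9 and 19.9 CPM in A2 (0.45 ± 0.10, adjusted p = 0.0021).

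Itgb1, not called between Lkb1-/- and WT MEFs, was lower in both clones than in either. Its levels were 752, 828 and 813 CPM in A1 (-0.44 ± 0.07 against Lkb1-/- MEFs, adjusted p = 4.4e-05) and 637, 691 and 705 CPM in A2 (-0.68 ± 0.07, adjusted p = 3.4e-07), all below the lowest Lkb1-/- library at 1061. The call held in both clones under every alternative run, and with IL-1β the differences were -0.44 ± 0.07 and -0.69 ± 0.07. Other members parted between the clones. Itga6 was higher in A2 (0.84 ± 0.15, adjusted p = 0.00017) and not called in A1 (-0.17 ± 0.15), Itgb8 was higher in A1 (59.7 ± 17.6 CPM, adjusted p = 0.0037) and stood at 27.8 ± 5.85 CPM in A2 beside 28.5 ± 5.40 in Lkb1-/- MEFs, and Cdh2 was higher in A1 (153.5 ± 7.08 CPM, adjusted p = 0.0022) and lower in A2 (78.2 ± 2.11 CPM, adjusted p = 2.2e-08). Each of these differed between the clones (edgeR adjusted p = 2.2e-05, 0.0032 and 2.9e-10). Itga1, Itga2, Itga8, Itga10 and Itga11 were called in neither clone in untreated cells, but for 4 of them this depended on the processing. Itga1 in A2 lay near the threshold (0.84 ± 0.32, adjusted p = 0.053) and passed it without the A2 library numbered 1 (1.07, adjusted p = 0.015), without the Lkb1-/- library numbered 3 (1.00, adjusted p = 0.049) or without all libraries numbered 1 (0.95, adjusted p = 0.0013). It also passed with DESeq2, unstranded counts, upper-quartile scaling or no filter on low counts (adjusted p = 0.023, 0.048, 0.039 and 0.00015). Itga2 in A1 (-1.01 ± 0.42, adjusted p = 0.065) passed it without the Lkb1-/- library numbered 2 (-1.26, adjusted p = 0.035), with DESeq2 (0.043) and without the filter (7.6e-05). Itga8 in A1 (0.57 ± 0.26, adjusted p = 0.092) passed it with DESeq2 (0.03) and without the filter (0.0064). In A2 Itga8 (0.50 ± 0.26, adjusted p = 0.15) passed without the A2 library numbered 1 (0.69, adjusted p = 0.048), without all libraries numbered 1 (0.046) and without the filter (0.032). Itga10 in A1 (0.73 ± 0.32, adjusted p = 0.086) passed with unstranded counts (0.045). Against WT MEFs, 22 members were called in A1 and 25 in A2, beside 55.4% and 60.6% of all genes.

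**Figure D4:**
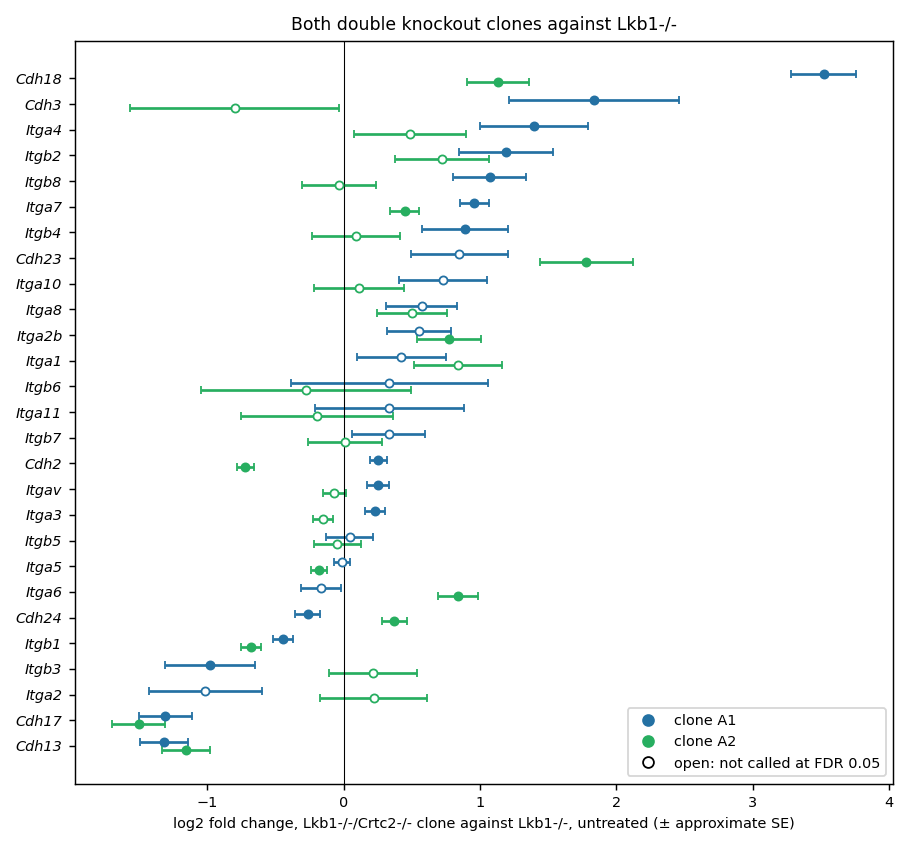
Paired points give the log2 fold change (± approximate SE) of 27 members between each Lkb1-/-/Crtc2-/- clone and Lkb1-/- MEFs, untreated, filled where called. Cdh10 and Cdh26 had no count in any of these groups and are not drawn; Cdh13, Cdh17 and Itgb1 lie left of 0 in both clones and Cdh18 and Itga7 right of it, while Cdh2 and Cdh24 are filled on opposite sides.

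Of the 29 tested members, IL-1β gave 3 calls in WT MEFs, beside 2.26% of all genes tested. In Lkb1-/- MEFs it gave 6 (4.74%), in A1 1 (1.99%) and in A2 4 (5.68%). The median absolute log2 fold change of the members was 0.284 in WT, 0.214 in Lkb1-/-, 0.154 in A1 and 0.3 in A2. Over all genes it was 0.125, 0.14, 0.126 and 0.15. Itga3 was lower after IL-1β in all 4 genotypes and no library of a treated group reached its untreated group: 345, 320 and 328 against 266, 262 and 266 CPM in WT, 228, 200 and 205 against 165, 153 and 164 CPM in Lkb1-/-, 262, 235 and 243 against 196, 182 and 178 CPM in A1, and 201, 190 and 178.5 against 159, 143 and 128 CPM in A2. The log2 fold changes were -0.32 ± 0.07, -0.39 ± 0.07, -0.42 ± 0.07 and -0.40 ± 0.07 (edgeR adjusted p = 0.016, 0.0016, 0.0019 and 0.0012). The call in WT was lost without WT ctrl library 1 or 3 or without any of the 3 treated WT libraries (adjusted p = 0.05 to 0.067), and with upper-quartile scaling (0.074). Itga6, the other abundant laminin-binding subunit, had values of -0.22 ± 0.14, -0.49 ± 0.15, -0.47 ± 0.15 and -0.48 ± 0.15 in the same order and was called in none (adjusted p = 0.65, 0.067, 0.15 and 0.061). Without the libraries numbered 1 it was called in Lkb1-/-, A1 and A2 MEFs (-0.47, -0.49 and -0.45, adjusted p = 0.036, 0.045 and 0.024), and without the untreated Lkb1-/- library numbered 2 it was called in Lkb1-/- MEFs (-0.60, adjusted p = 0.041). DESeq2 called it in Lkb1-/- MEFs and A2 (adjusted p = 0.04 and 0.037), and edgeR without the filter called it in Lkb1-/-, A1 and A2 MEFs (3e-05, 0.00034 and 4.9e-05).

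Itga2 had the largest called rise. In Lkb1-/- MEFs it went from 4.14, 1.72 and 2.40 CPM to 12.3, 7.67 and 11.5 CPM (1.93 ± 0.39, adjusted p = 0.004), without overlap. The values were 2.33 ± 0.76 in WT MEFs (adjusted p = 0.15), where it was near the floor of counts, 1.40 ± 0.41 in A1 (adjusted p = 0.099, and 0.032 without the libraries numbered 1) and 0.42 ± 0.39 in A2 (adjusted p = 0.66). The rise was called in WT and in A1 by DESeq2 (adjusted p = 0.012 and 0.025) and by edgeR without the filter on low counts (5.4e-06 and 3.3e-08). It was also called in both by edgeR with the replicate number as a block (adjusted p = 0.016 and 0.00088). After IL-1β it was lower in both clones than in Lkb1-/- MEFs (A1 -1.54 ± 0.39, adjusted p = 0.0035; A2 -1.29 ± 0.38, adjusted p = 0.012, or -0.97 and 0.086 without the treated A2 library numbered 2). The difference of the responses themselves, A2 minus Lkb1-/-, was -1.51 ± 0.55 with an unadjusted p of 0.012 and an adjusted p of 1, or -1.5 and an adjusted p of 0.00049 without the filter.

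Itga5 went up in WT (161.6 ± 6.13 against 127.7 ± 7.16 CPM, 0.34 ± 0.06, adjusted p = 0.0016) and in Lkb1-/- MEFs (289.0 ± 22.5 against 247.5 ± 6.03 CPM, 0.22 ± 0.06, adjusted p = 0.027), the latter lost without library 2 or 3 of either Lkb1-/- group (adjusted p = 0.058 to 0.13) and without the filter on low counts (0.082). It was not called in A1 (-0.04 ± 0.06) or A2 (0.15 ± 0.06). Itga8 and Cdh18, both near the floor of counts in WT MEFs, went down in Lkb1-/- MEFs and in A2. Itga8 went from 6.43, 7.66 and 9.33 to 3.24, 3.37 and 4.70 CPM in Lkb1-/- MEFs (-1.05 ± 0.27, adjusted p = 0.022) and from 8.16, 10.5 and 14.4 to 4.99, 3.50 and 5.19 CPM in A2 (-1.28 ± 0.26, adjusted p = 0.0041). Cdh18 went from 3.35, 4.25 and 3.9 to 1.46, 2.06 and 1.82 CPM (-1.10 ± 0.25, adjusted p = 0.0099) and from 6.53, 10.1 and 8.63 to 3.0, 4.53 and 3.45 CPM (-1.20 ± 0.23, adjusted p = 0.002). In A1 neither was called, although the treated libraries lay below the untreated ones for both. Cdh18 went from 40.2, 51.5 and 40.2 to 25.5, 29.3 and 25.9 CPM there (-0.71 ± 0.21, adjusted p = 0.1) and was called by DESeq2 (0.0031), without the filter on low counts (2.7e-05) and without all libraries numbered 1 (0.049). Itga8 went from 11.6 ± 1.00 to 7.82 ± 1.07 CPM in A1 (-0.57 ± 0.26, adjusted p = 0.42, or 0.048 without the filter). The Lkb1-/- calls of Itga8 and Cdh18 were lost without the Lkb1-/- ctrl library 2 or the treated library 1, that of Itga8 also without ctrl library 3 or treated library 2 (adjusted p = 0.056 to 0.12 in all). Itga7 rose in Lkb1-/- MEFs (0.45 ± 0.10, adjusted p = 0.012, and 0.055 without ctrl library 2 or 0.066 without all libraries numbered 1) and A2 (0.55 ± 0.10, adjusted p = 0.0017), and Cdh24 fell in WT MEFs (-0.35 ± 0.09, adjusted p = 0.048), a call lost without WT ctrl library 2 or 3 or treated library 1 or 2 (adjusted p = 0.077 to 0.27).

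Of the 29 members 0 were called for Lkb1-/- minus WT, A1 minus Lkb1-/- or A2 minus Lkb1-/- responses to IL-1β, in edgeR or in DESeq2, beside 0.245%, 0.0285% and 0% of all genes in edgeR. At an unadjusted p under 0.05 edgeR counted 0, 3 and 1 members, beside 985, 433 and 388 of all 17522 genes. The 3 in A1 were Itga5 (-0.26 ± 0.08), Itga7 (-0.35 ± 0.14) and Cdh23 (-1.07 ± 0.50), and that in A2 was Itga2. Without the filter on low counts edgeR called Itga2 for A2 minus Lkb1-/- and Itgb3 for Lkb1-/- minus WT (0.68, adjusted p = 0.043).

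**Figure D5:**
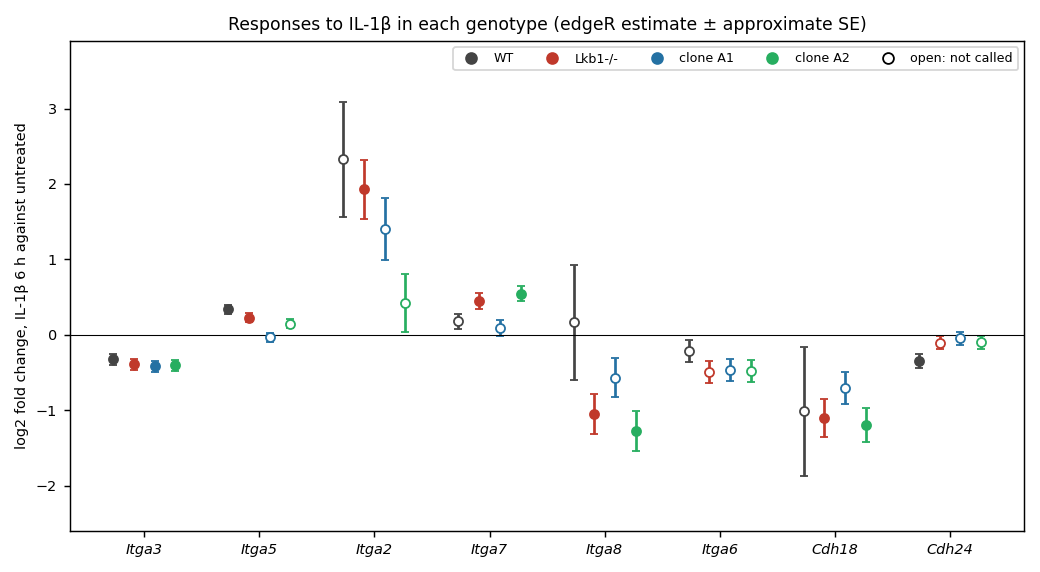
Points give the log2 fold change (± approximate SE) after 6 hours of IL-1β in each genotype for 8 members, filled where called. All 4 points of Itga3 are filled between -0.42 and -0.32, and the Itga2 points run from 2.33 in WT to 0.42 in A2, of which the Lkb1-/- point is filled.

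Genes that work with these receptors were taken as 3 lists. Of the 17 tested integrin adaptors, 8 were lower and 2 higher in untreated Lkb1-/- than in WT MEFs, beside 55.9% of all genes called. Vinculin (Vcl), which links talin and catenins to actin, fell from 979 to 370.1 CPM (-1.40 ± 0.09), kindlin-2 (Fermt2), a co-activator of integrins, from 332 to 127 CPM (-1.39 ± 0.11) and talin-2 (Tln2) from 54.5 to 21.1 CPM (-1.37 ± 0.16). The 2 higher ones were Lims2, from 1.01 to 4.33 CPM (2.1 ± 0.31), and Tns2, from 101 to 133 CPM (0.39 ± 0.09). The median log2 fold change of the list was -0.44, against 0.04 over all genes. Against Lkb1-/- MEFs, 4 adaptors were higher and 2 lower in A1, beside 35.3% of all genes, and 1 and 5 in A2, beside 32.3%. In A1, Vcl was higher than in Lkb1-/- MEFs (649.8 CPM, 0.81 ± 0.09, adjusted p = 4.1e-07), and in A2 it was not called (329 CPM, -0.17 ± 0.09). Lims2 was lower in both clones (A1 -3.53 ± 0.35, A2 -2.88 ± 0.33, edgeR adjusted p = 1.3e-07 and 1e-06). Tns3 was higher in both (0.35 ± 0.06 and 0.22 ± 0.06).

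Of the 25 tested integrin ligands, 15 were lower and 8 higher, beside 55.9% of all genes. Several laminin chains, whose trimers are ligands of α3, α6 and α7 integrins, were lower. Lamb3 went from 33.6 to 0.916 CPM (-5.19 ± 0.23), Lama5 from 507 to 59.8 CPM (-3.08 ± 0.10) and Lamc1 from 516 to 138 CPM (-1.91 ± 0.08). Lama3, however, was higher, at 0.767 against 0.0732 CPM (3.37 ± 0.48, adjusted p = 3.7e-06). Fibronectin (Fn1), the ligand of α5β1, rose from 639.8 to 2014 CPM (1.65 ± 0.13) and osteopontin (Spp1) from 57.4 to 284.6 CPM (2.31 ± 0.31). Nephronectin (Npnt) fell from 12.3 to 4.10 CPM (-1.58 ± 0.24, edgeR adjusted p = 1e-05), although Itga8 was higher. Vcam1 fell from 124 to 15.3 CPM (-3.02 ± 0.22, edgeR adjusted p = 2.3e-10), although Itga4 was higher. In A1, 13 of the 25 were higher than in Lkb1-/- MEFs and 2 lower, beside 35.3% of all genes, and in A2 4 and 2, beside 32.3%. After IL-1β, Vcam1, the ligand of α4β1, rose in WT, Lkb1-/- and A2 MEFs (1.09 ± 0.21, 1.38 ± 0.22 and 1.32 ± 0.22, edgeR adjusted p = 0.0034, 0.00027 and 0.00042) and was not called in A1 (0.70 ± 0.21, adjusted p = 0.1).

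Of the 6 tested catenins and partners, 2 were higher and 3 lower in untreated Lkb1-/- than in WT MEFs, beside 55.9% of all genes. δ-catenin 2 (Ctnnd2) rose from 0.875 to 10.2 CPM (3.54 ± 0.20) and plakoglobin (Jup) from 54.2 to 95.9 CPM (0.82 ± 0.21). αE-catenin (Ctnna1) fell from 539.5 to 386.0 CPM (-0.48 ± 0.12), and β-catenin (Ctnnb1) was not called (0.13 ± 0.14, adjusted p = 0.46).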

How the data were processed

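Trimmed paired reads (Trim Galore 0.6.0) had been aligned by the authors with STAR 2.7.8a to GRCm38.p6, and the deposited values are raw counts of read pairs per gene. Counts for the second strand were used, which held 95.5 to 96% of stranded counts. Lines naming no gene held 26.7 to 34.4% of read pairs and were left out. The library kit is given differently in the labels and in the methods. Identifiers were matched to symbols in a GENCODE annotation of GRCm38 (55230 of 55471), which also gave exon lengths.

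All 24 libraries entered a single fit of the 8 groups in edgeR 4.0.16 (TMM scaling, filterByExpr with at least 10 counts, quasi-likelihood test, Benjamini-Hochberg adjustment over 17522 genes), tested on simulated data beforehand. SE is the log2 fold change divided by the square root of F, an approximation. Depth set the precision: a floor of 3 counts per library and exact 95% binomial intervals cover counting error only. Nothing states whether libraries came from separate cultures, so p-values measure the spread between these libraries, which may be technical.

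Alternatives were unstranded counts, 2 other scalings, no filter, DESeq2 1.42.0, a replicate term, each library left out and, added after the data were seen, all libraries numbered 1 left out. Members were described in full if called between untreated Lkb1-/- and WT MEFs beyond a log2 fold change of 1 with at least 1 CPM in a group, called alike in both clones beyond 1, or called for IL-1β; the rest of those named were picked with their values in view. Members and lists alike were chosen with earlier results of these data known.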

Additional observations from a re-analysis of the deposited data

Results flagged for a closer look

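The effects of the clones against untreated Lkb1-/- MEFs differed for 14 members, tested as clone A2 minus clone A1 on the log2 scale in edgeR. Cadherins lower in A2 were Cdh3 (-2.63), Cdh18 (-2.39) and Cdh2 (-0.97), and those higher in A2 were Cdh23 (0.93) and Cdh24 (0.63). Integrins higher in A2 were Itga2 (1.24), Itgb3 (1.20) and Itga6 (1.01). Integrins lower in A2 were Itgb8 (-1.11), Itga7 (-0.51), Itga3 (-0.38), Itgav (-0.32), Itgb1 (-0.24) and Itga5 (-0.17). Of these 14 calls, 9 held under every alternative run, and those of Itga5, Cdh23, Itga2, Itgb1 and Cdh3 were lost under at least 1.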

How the results depend on the processing

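Of 178 calls of members over 16 comparisons, 136 held under every alternative, and no named value changed sign. Counts of called members moved by over 1.5 times only in the IL-1β comparisons. Without the filter they were 5 in WT (3 as reported), 6 in A1 (1), 7 in A2 (4) and 1 (0) each for the differences Lkb1-/- minus WT (Itgb3) and A2 minus Lkb1-/- (Itga2). Calls over all genes went the same way, from 396 to 954 in WT, 348 to 908 in A1, 995 to 1643 in A2, 43 to 347 and 0 to 68. With the replicate number as a block, 5, 7 and 7 were called in WT, A1 and A2, and 1629, 1684 and 3133 over all genes. DESeq2 gave 4 in A1, as did leaving out all libraries numbered 1, an alternative chosen after seeing the data (573 and 899 over all genes). Leaving out 1 library gave 1 to 2 in WT (1 without WT ctrl library 3 or treated library 1 or 2) and 3 to 6 in Lkb1-/- MEFs (3 without ctrl library 2). The cause was not tested. The replicate numbers were not taken as pairs: correlations of same-numbered libraries ran from 0.0355 to 0.589 over 84 pairs, although 23 of 24 libraries correlated best with their own number, a hint from the data. The block raised the calls in A1 against Lkb1-/- MEFs from 15 to 21 untreated (6181 to 8424 over all genes), where leaving out 1 library gave 10 to 12 (5220 to 5626 over all genes). It also gave calls for Itga6 after IL-1β in Lkb1-/-, A1 and A2 MEFs (adjusted p = 0.00017, 0.00063 and 0.00011), Cdh18 after IL-1β in A1 (0.00024) and Itga1 in untreated A2 against Lkb1-/- MEFs (0.00046). Between Lkb1-/- and WT MEFs it called Itgb1 and Itgb7, each untreated and treated (adjusted p = 0.043 and 0.0096, 0.00077 and 0.028), and treated Itgb5 (0.0073). Upper-quartile scaling moved the median of all genes between treated Lkb1-/- and WT MEFs from 0.0325 to 0.135. With unstranded counts, 13 members were called between treated A2 and Lkb1-/- MEFs, 7 of them higher, against 5 of 12. Without the filter, 8 of 12 calls between untreated A2 and Lkb1-/- MEFs were higher, against 6 of 11. The filter on low counts kept 20 of 49 members out of the tests.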
